A study of Mus musculus with 8 samples.

Results

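The Mir322, Mir503, Mir351, Mir542 and Mir450 hairpins form a miRNA cluster on the mouse X chromosome. The 10 mature miRNAs described here are mmu-miR-322-5p, mmu-miR-322-3p, mmu-miR-503-5p, mmu-miR-503-3p, mmu-miR-351-5p, mmu-miR-351-3p, mmu-miR-542-5p, mmu-miR-542-3p, mmu-miR-450a-5p and mmu-miR-450b-5p. They were chosen by name and not by their values, although earlier results of these data were known. They are 10 of 1978 mature miRNAs listed for the C2C12 hairpin libraries, of 605 listed for the ATF4 experiment and of 696 listed for the P19 cells. C2C12 is a line of mouse skeletal myoblasts that fuse into myotubes in differentiation medium, and P19 is a mouse embryonal carcinoma line. The C2C12 hairpin libraries came from stable lentiviral lines with a small hairpin RNA against Perk (shPerk) or a negative control hairpin (shNC), at day 0 and at day 3 of differentiation. The other libraries came from C2C12 cells with an empty vector or with ATF4 overexpression driven by the EF1α promoter, and from P19 cells with shNC or shPerk, whose day and induction state the labels do not give. A single hairpin sequence was used against Perk, and each of the 8 conditions has 1 library, so no comparison could be checked against the spread between replicates and none is given a p-value.

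miRNAs of a cluster can be cut from 1 long primary transcript by Drosha and Dicer, which leaves a 5p and a 3p arm for each hairpin. The arm that enters an Argonaute protein recognises its target mRNAs mostly by the seed, the bases near its 5′ end. The mouse pair of miR-322 and miR-503 corresponds to miR-424 and miR-503 in humans. miR-322 and miR-503 are known to rise in muscle differentiation and to repress the phosphatase Cdc25A, which helps myoblasts to leave the cell cycle. miR-351 is known to favour proliferation of muscle progenitors through E2f3. PERK is a kinase of the endoplasmic reticulum that phosphorylates eIF2α in the unfolded protein response, and the transcription factor ATF4 is translated more when eIF2α is phosphorylated.

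The mature sequences are shown because members are compared below with miRNAs outside the cluster that carry the same seed. They are from RefSeq (GRCm38.p6), matched by miRNA name for all 10 members, and are written 5′ to 3′ with the seed, bases 2 to 8, in capitals.
mmu-miR-322-5p: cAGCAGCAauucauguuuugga
mmu-miR-503-5p: uAGCAGCGggaacaguacugcag
mmu-miR-351-5p: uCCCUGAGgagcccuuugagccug
mmu-miR-450a-5p: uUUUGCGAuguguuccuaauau
mmu-miR-450b-5p: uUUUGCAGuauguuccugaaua
mmu-miR-542-3p: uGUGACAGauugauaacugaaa
mmu-miR-322-3p: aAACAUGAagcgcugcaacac
mmu-miR-503-3p: gAGUAUUGuuuccacugccugg
mmu-miR-351-3p: gGUCAAGAggcgccugggaac
mmu-miR-542-5p: cUCGGGGAucaucaugucacga
miR-322-5p and miR-503-5p have the same bases 2 to 7 and differ at the last base of the seed, so only miR-322-5p has the seed of the miR-15/16 family. miR-351-5p has the seed of miR-125a-5p and miR-125b-5p. The other 7 members share bases 2 to 7 with no other arm of the cluster.

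In the GENCODE annotation of GRCm38, the cluster has 7 hairpin genes on the minus strand of the X chromosome within 6353 bp. In the order of the strand they are Mir322 (chrX:53054255-53054349), Mir503 (chrX:53053984-53054054), Mir351 (chrX:53053255-53053353), Mir542 (chrX:53049403-53049487), Mir450-2 (chrX:53048299-53048367), Mir450-1 (chrX:53048154-53048244) and Mir450b (chrX:53047997-53048078). None of the 7 overlaps another annotated gene, so none lies in an exon, intron or UTR of a host gene. The long non-coding RNA Gm28730 lies on the same strand between Mir351 and Mir542, the non-coding transcript C430049B03Rik ends 696 bp before Mir322, and the protein-coding gene Plac1 lies 15645 bp away. Mature miR-450a-5p is encoded by both Mir450-1 and Mir450-2, and its reads cannot be assigned to either gene. Mature miRNAs are short and of nearly the same length, so levels were compared without a correction for length.

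The 4 C2C12 hairpin libraries hold between 8800977 and 11993448 reads on miRNAs, and the ATF4 and P19 libraries are given only as reads per 1000000 miRNA reads (RPM), in which 1 RPM stands for about 4.46 to 12.2 reads. Perk and Atf4 mRNA are not measured by small RNA sequencing, so the knockdown and the overexpression were not checked here. The defining markers of each labelled cell type were examined. The muscle miRNAs miR-1a-3p, miR-133a-3p, miR-133b-3p and miR-206-3p summed to between 3839 and 88479.9 counts per 1000000 miRNA reads (CPM) in the C2C12 hairpin libraries, to 2467 and 3790 RPM in the ATF4 experiment, and to 34.5 and 96.9 RPM in P19 cells, where miR-206-3p is not listed. The 10 embryonal carcinoma markers, arms of the miR-302 and miR-290 clusters, summed to less than 1 CPM in each C2C12 hairpin library and to 213276 and 445476 RPM in P19 cells. The 5 markers fixed for other cell types summed to 185 and 560 CPM in the shNC libraries at day 0 and day 3 and to 2872 and 4117 CPM in the shPerk libraries. Of these, the blood marker miR-142a-3p was at 2.47, 225, 5.00 and 70.5 CPM and the neuronal marker miR-9-5p at 173, 2641, 551 and 4044 CPM (shNC and shPerk at day 0, then shNC and shPerk at day 3). The blood marker miR-223-3p had 0 reads in 3 of these libraries and 0.106 CPM in the fourth, miR-124-3p had 0 reads in all 4, and the liver marker miR-122-5p lay between 2.76 and 10.1 CPM. The sum of these markers therefore moves with the knockdown of C2C12 cells, and its part in the differences below was not tested.

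The 10 members together held 0.498% of all miRNA reads in shNC cells at day 0 (95% Clopper-Pearson interval 0.494 to 0.503), 0.347% in shPerk cells at day 0 (0.343 to 0.351), 0.985% in shNC cells at day 3 (0.979 to 0.990) and 0.304% in shPerk cells at day 3 (0.301 to 0.308). The share of the cluster in the miRNA pool was thus highest in differentiated control cells, and among these 4 libraries lowest in knockdown cells on the same day. These intervals hold the error of counting reads alone and leave out the spread between replicates. Reads copied by PCR need not stand for separate molecules, so the error of counting molecules can be larger. The use of molecular identifiers is not stated in the sources used here. In bulk samples, fewer cells that express a miRNA and fewer molecules per cell cannot be told apart. In the RPM tables the share was 0.177% with the vector and 0.259% with ATF4, and 0.275% in shNC and 0.118% in shPerk P19 cells, without an interval because these tables give no counts.

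The reads of each member are given in the order shNC day 0, shPerk day 0, shNC day 3 and shPerk day 3. Of the pair with the related seeds, miR-322-5p had 3825, 2035, 9937 and 1918 reads. miR-503-5p had 4590, 1970, 10138 and 939 reads. Both had the most reads in shNC cells at day 3 and the fewest in shPerk cells at day 3. For miR-322-5p the order of the shPerk libraries depended on the scaling, as given below. miR-351-5p, the most abundant member in 3 of the 4 libraries, had 20513, 9154, 45297 and 4840 reads. miR-450a-5p had 10511, 7708, 18062 and 9218 reads. Its highest value was the smallest multiple of its lowest among the abundant members. miR-450b-5p had 3039, 1163, 1755 and 387 reads. It was the only member of the 10 with fewer reads at day 3 than at day 0 in shNC cells.

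Of the 3p arms, miR-322-3p had 7682, 5416, 19638 and 7686 reads in the same order. miR-503-3p had 2734, 1356, 4643 and 1352 reads. miR-542-3p had 3006, 1474, 7904 and 2190 reads. All of these were highest in shNC cells at day 3, and miR-322-3p had more reads than its 5p arm in every library. The rarer arms were miR-351-3p, with 513, 268, 717 and 142 reads, and miR-542-5p, with 16, 10, 28 and 16 reads. No comparison of miR-542-5p is resolved well at this depth.

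On the CPM scale, scaled to all miRNA reads, the levels in shNC cells at day 0 ran from 1.41 CPM for miR-542-5p to 1812 CPM for miR-351-5p, with a median of 303 CPM over the 10 members. The median was 196 CPM in shPerk cells at day 0, 744 CPM in shNC cells at day 3 and 173 CPM in shPerk cells at day 3. The 2 miRNAs at the lower end, miR-351-3p and miR-542-5p, kept their ranks in all 4 libraries, whereas the top rank passed from miR-351-5p to miR-450a-5p in shPerk cells at day 3. In that library miR-450a-5p stood at 978 CPM (95% interval 958 to 998), miR-322-3p at 815 CPM (797 to 834) and miR-351-5p at 513 CPM (499 to 528). Neighbours in the order had overlapping counting intervals for miR-450b-5p and miR-542-3p in shNC cells at day 0 and for miR-503-5p and miR-322-5p in shNC cells at day 3. In shPerk cells at day 0 they overlapped for miR-322-5p and miR-503-5p and for miR-542-3p and miR-503-3p. No neighbours overlapped in shPerk cells at day 3.

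**Figure D1:**
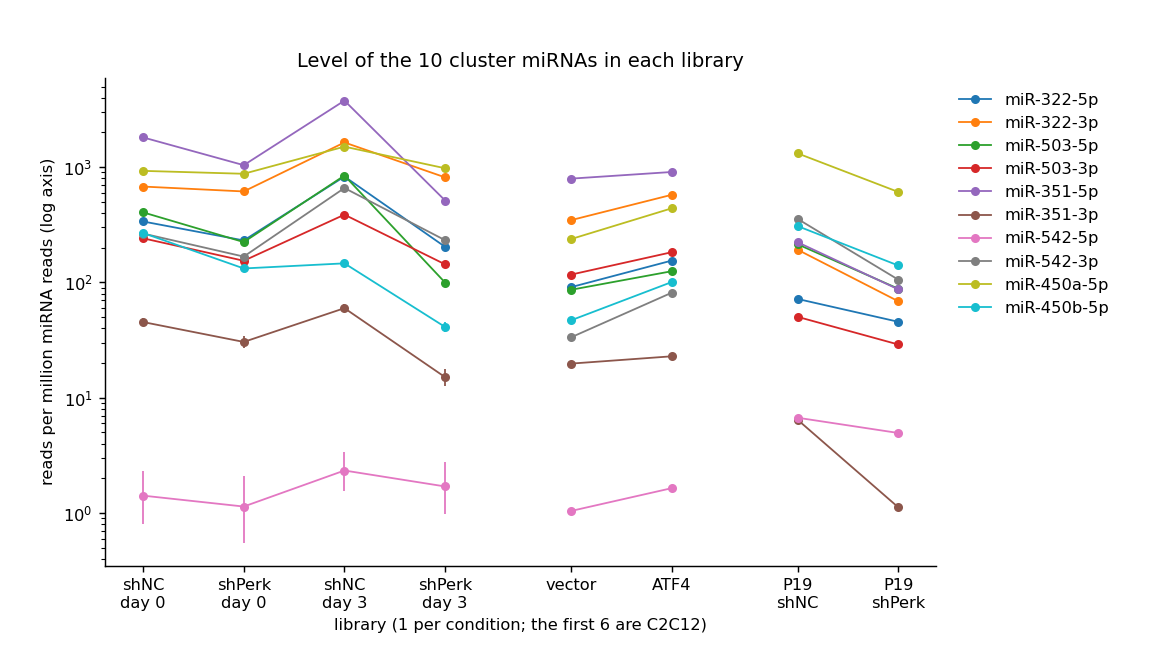
Level of each of the 10 miRNAs in each of the 8 libraries, in reads per 1000000 miRNA reads on a log axis, with 95% counting intervals for the 4 count libraries and lines within each experiment. miR-351-5p reached 3777 CPM in shNC cells at day 3 and stood at 513 CPM in shPerk cells at day 3, below miR-450a-5p at 978 CPM.

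The members were also compared as shares of their own sum, which does not depend on how the libraries are scaled. miR-351-5p made up 36.4% of the 10 members in shNC cells at day 0, 30.0% in shPerk cells at day 0, 38.3% in shNC cells at day 3 and 16.9% in shPerk cells at day 3. miR-450a-5p made up 18.6%, 25.2%, 15.3% and 32.1%, and miR-322-3p 13.6%, 17.7%, 16.6% and 26.8%, in the same order. The shares of both were thus higher, and that of miR-351-5p lower, in each shPerk library than in the shNC library of the same day. In the ATF4 experiment the share of miR-351-5p was 44.8% with the vector and 35.0% with ATF4. P19 cells had another make-up, in which miR-450a-5p took 48.0% in shNC and 51.7% in shPerk cells and miR-351-5p took 8.13% and 7.38%.

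**Figure D2:**
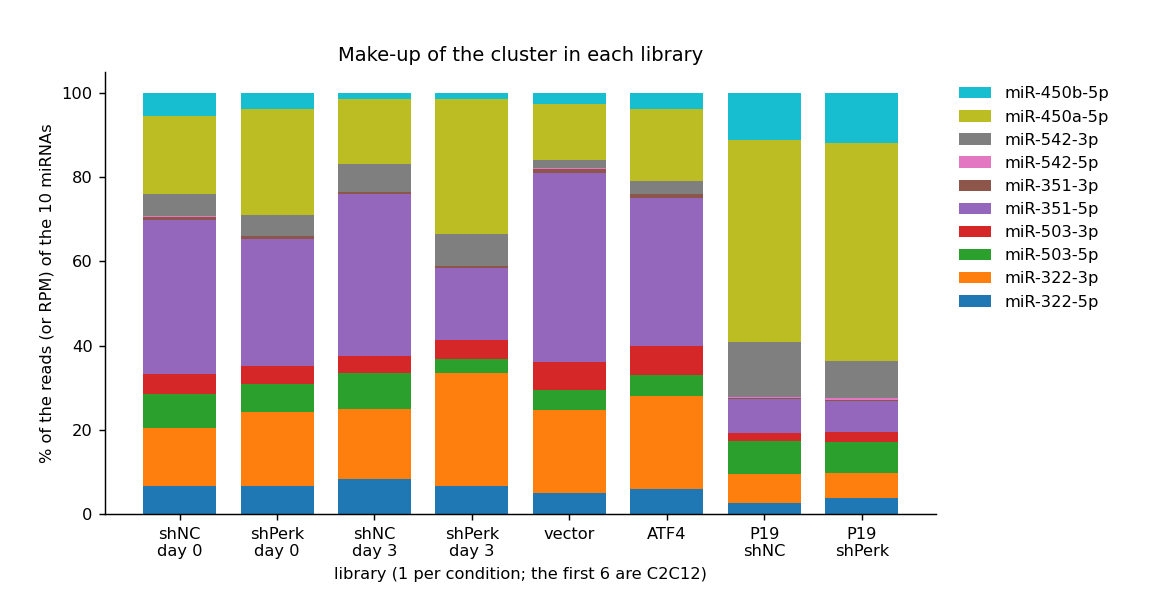
Share of each miRNA in the sum of the 10 cluster miRNAs in each library, in percent of reads (C2C12 hairpin libraries) or of RPM (ATF4 and P19). miR-351-5p shrinks to 16.9% in shPerk cells at day 3, and miR-450a-5p takes 48.0% and 51.7% in P19 cells.

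Fold changes below are log2 differences between 2 libraries after scaling with the TMM factors of edgeR, and a call, higher or lower, means a value beyond 1 on this scale, without a test. Ranges in brackets are 95% intervals from the reads. With TMM factors, the median of the whole table lay between -0.06 and 0.01 in each of the 6 comparisons, so the values are relative to the typical miRNA. Scaling to total reads moved that median to -0.19 for the knockdown at day 0, -0.32 for the knockdown at day 3, -0.30 for differentiation of shNC cells, -0.40 for differentiation of shPerk cells and -0.65 for P19 cells. Upper-quartile factors moved it to -0.38 for the ATF4 experiment.

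Differentiation of control cells was compared first, to see how the cluster behaved in cells with PERK. Between day 0 and day 3, 5 of the 10 members were called higher and 0 lower, where 12.5% of the 593 miRNAs tested were called higher. The median log2 fold change of the members was 1.15, against -0.04 for all miRNAs tested. miR-542-3p was 2.98-fold higher, with a log2 fold change of 1.58 (1.52 to 1.64). miR-322-5p was 2.95-fold higher, at 1.56 (1.51 to 1.61), and miR-322-3p 2.90-fold higher, at 1.54 (1.5 to 1.57). miR-503-5p and miR-351-5p had nearly the same fold change, both at 1.33 on the log2 scale and 2.51-fold higher. The other members with more reads at day 3 were not called. They were miR-542-5p at 0.98 (0.05 to 1.97), miR-450a-5p at 0.96 (0.93 to 1.0), miR-503-3p at 0.95 (0.88 to 1.02) and miR-351-3p at 0.67 (0.50 to 0.83). miR-450b-5p stood apart at -0.61 (-0.70 to -0.52), although miR-450b-3p of the same hairpin was called higher at 1.07 (0.95 to 1.18). The number called higher depended on the filter and the scaling. It was 8 when all miRNAs entered the scaling and 7 with median-of-ratios factors, which put miR-542-5p at 1.02 and miR-450a-5p just past the limit. Scaling to total reads left the same count of 5 members and a median of 0.89, with 51 miRNAs higher and 140 lower in the whole table against 74 and 98 with TMM factors.

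The knockdown was compared at day 0, before differentiation medium was given. None of the 10 members was called in either direction, where 15.6% of 602 miRNAs were called higher and 20.3% lower. Even so, 9 of the 10 members had log2 fold changes below 0, where 313 of the 602 miRNAs tested did. The median of the members was -0.48, against -0.06 for all miRNAs. miR-450b-5p had the lowest value, -0.89 (-0.99 to -0.79), and it passed the limit at -1.02 with scaling to total reads and at -1.13 when miRNAs averaging under 10 CPM were left out. miR-503-5p was at -0.72 (-0.80 to -0.65) and miR-351-5p at -0.67 (-0.70 to -0.63). miR-322-3p, at -0.01 (-0.06 to 0.04), and miR-450a-5p, at 0.05 (0.01 to 0.09), lay close to 0, and the sign of both changed with the scaling. The cluster as a sum was at -0.39 (-0.41 to -0.37).

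At day 3 of differentiation, 7 of the 10 members were called lower in shPerk cells and 0 higher, where 23.0% of 575 miRNAs were called lower. The median log2 fold change of the members was -1.34, against 0.01 for all miRNAs. All 10 members had values below 0, where 286 of the 575 miRNAs tested did. The differences furthest from 0 were those of miR-503-5p and miR-351-5p. miR-503-5p was 6.74-fold lower, with a log2 fold change of -2.75 (-2.85 to -2.66), and miR-351-5p was 5.84-fold lower. miR-322-5p was 3.23-fold lower, at -1.69 (-1.76 to -1.62). Next came miR-351-3p at -1.66 (-1.93 to -1.39), miR-450b-5p at -1.5 (-1.66 to -1.34), miR-542-3p at -1.17 (-1.24 to -1.10) and miR-503-3p at -1.10 (-1.19 to -1.01). The counting interval of each of the 7 lay wholly below -1.

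The members that were not called at day 3 were miR-322-3p, miR-450a-5p and miR-542-5p. miR-322-3p was at -0.67 (-0.71 to -0.64), and it passed the limit at -1.01 with scaling to total reads. miR-450a-5p was at -0.29 (-0.33 to -0.25), the smallest difference among the abundant members. miR-542-5p was at -0.13 (-1.11 to 0.81), which its 28 and 16 reads do not resolve. Among the arms of the same hairpins outside the list of members, miR-450b-3p was at -1.89 (-2.07 to -1.71), miR-450a-1-3p at -0.85 (-1.26 to -0.45) and miR-450a-2-3p, with 16 and 11 reads, at 0.14 (-1.11 to 1.34). With scaling to total reads, 93 miRNAs of the table were higher and 166 lower, against 126 and 132 with TMM factors. The other cell type markers summed to 560 CPM in the shNC and 4117 CPM in the shPerk library of this comparison. Most of both sums was miR-9-5p, at 551 and 4044 CPM.

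**Figure D3:**
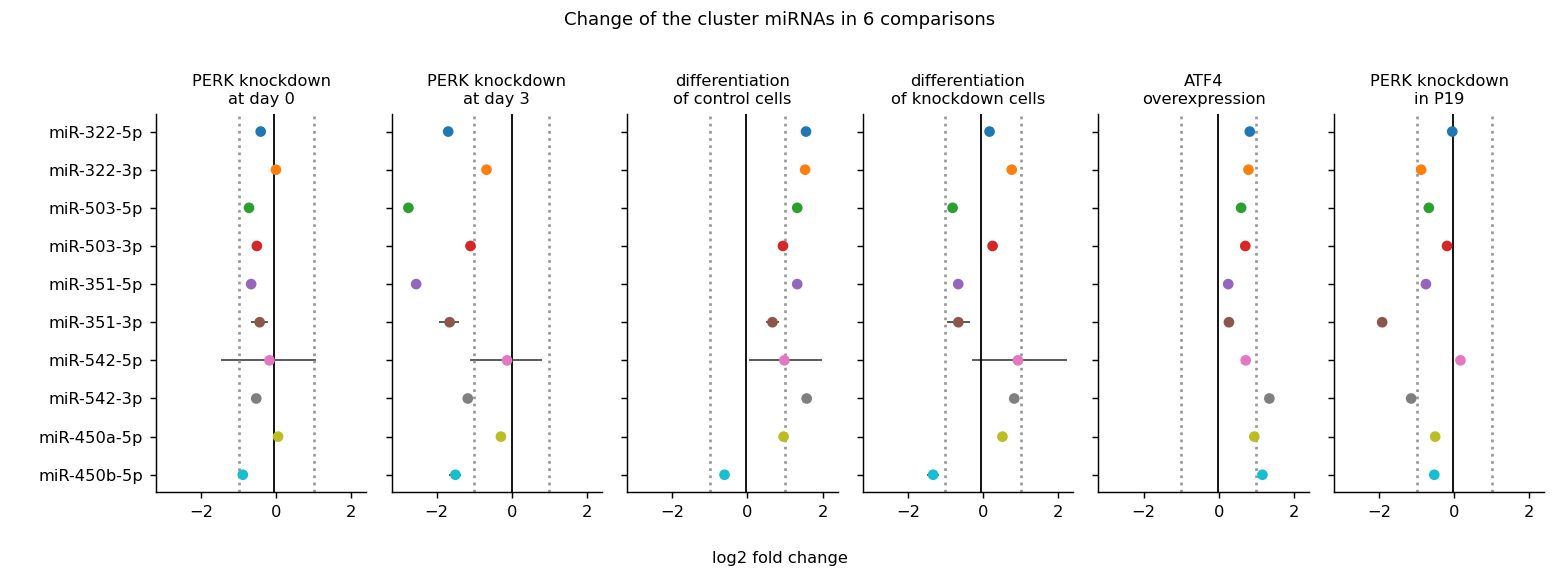
Log2 fold change of each cluster miRNA in the 6 comparisons, with 95% counting intervals where the files give counts. The black line is the median of all miRNAs tested and the dotted lines are the limits of a call at -1 and 1. In the knockdown at day 3, 7 of 10 miRNAs lie below -1, with miR-503-5p at -2.75.

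Along the strand, Mir322, Mir503 and Mir351 lie within 996 bp of each other from start to start, and the Mir542 and Mir450 genes start 4862 to 6271 bp from Mir322. miR-503-5p and miR-351-5p, the arms with the largest differences in the knockdown at day 3, come from the first group, and the next arm by size, miR-450b-3p at -1.89, comes from the last hairpin. The values did not follow the position smoothly. Within a single hairpin, miR-322-5p and miR-322-3p differed by 1.02 on the log2 scale and miR-503-5p and miR-503-3p by 1.65, and at the far end miR-450a-5p at -0.29 lay next to miR-450b-5p at -1.5. In differentiation of shNC cells, the members of the hairpins ahead of Mir450b had values between 0.67 and 1.58, whereas miR-450b-5p was at -0.61.

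**Figure D4:**
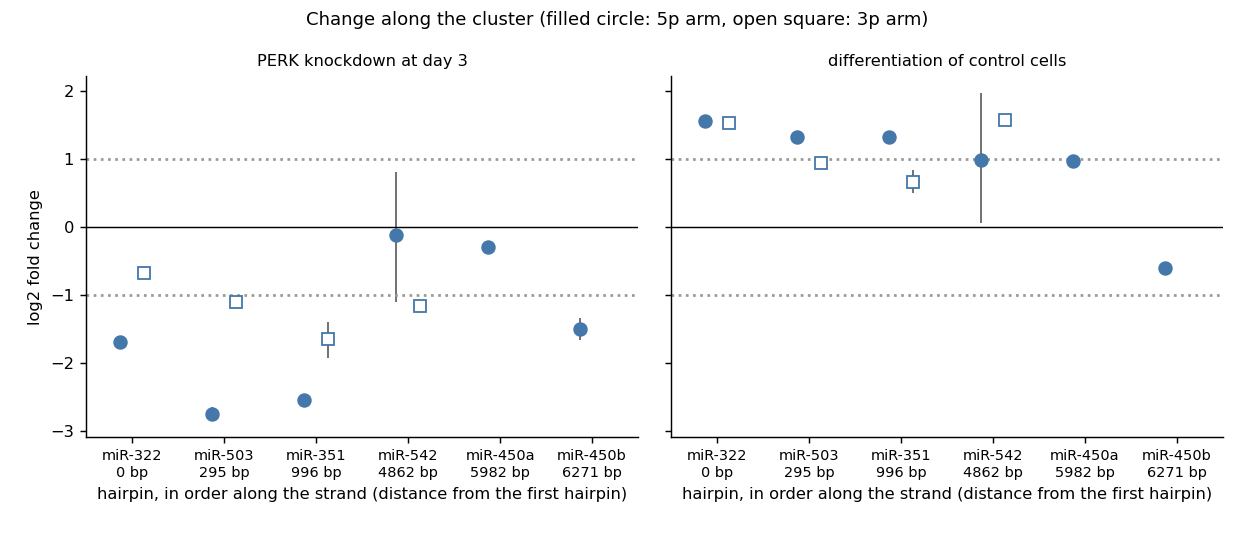
Log2 fold change of each member (filled circles 5p, open squares 3p), ordered by hairpin along the strand, for the PERK knockdown at day 3 and for differentiation of shNC cells. Each hairpin is labelled with its start relative to that of Mir322 (Mir450-2 for miR-450a-5p), bars are 95% counting intervals, and miR-450b-5p is the only member below 0 in differentiation, at -0.61.

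Differentiation of the knockdown cells was compared in the same way. The shPerk comparisons share libraries with those above, so their values are given side by side and no relation between them was computed. From day 0 to day 3 in shPerk cells, 0 members were called higher and 1 lower, where 16.9% of 573 miRNAs were called higher and 16.9% lower. The median log2 fold change was 0.21, where it was 1.15 in shNC cells. miR-450b-5p was the member called lower, at -1.33 (-1.5 to -1.16). miR-503-5p was at -0.81 (-0.92 to -0.70), miR-351-5p at -0.66 (-0.71 to -0.61) and miR-351-3p at -0.66 (-0.96 to -0.36), while in shNC cells their values were 1.33, 1.33 and 0.67. miR-322-5p was at 0.17 (0.08 to 0.26) in shPerk cells and at 1.56 in shNC cells, and miR-503-3p was at 0.25 and 0.95. In shPerk cells both turned sign with scaling to total reads, to -0.18 for miR-322-5p and -0.10 for miR-503-3p. miR-542-3p was at 0.83 (0.73 to 0.93), miR-322-3p at 0.76 (0.71 to 0.81) and miR-450a-5p at 0.52 (0.47 to 0.56), so that these members had more reads relative to the typical miRNA at day 3 in both lines.

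The balance of this comparison depended on the scaling. With scaling to total reads, 4 members were called lower, the median of the members was -0.14, and 58 miRNAs of the table were higher and 161 lower, against 97 and 97 with TMM factors. The median of all miRNAs was -0.40 with total reads and -0.05 with TMM factors, below that of the members in each case. A change of scaling shifts all miRNAs by almost the same amount, so it could not alter the distance between these medians. The muscle miRNAs were called higher in differentiation in 4 of 4 cases in shNC cells and in 4 of 4 in shPerk cells, with medians of 2.76 and 2.64.

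ATF4 was overexpressed in C2C12 cells in growth medium, to see which miRNAs respond to it without the differentiation stimulus. The RPM values of miR-322-5p were 90.9 with the vector and 155 with ATF4, and those of miR-322-3p were 347 and 575. miR-503-5p was at 86.3 and 125 RPM and miR-503-3p at 117 and 183 RPM. miR-351-5p was at 795 and 908 RPM and miR-351-3p at 19.8 and 22.9 RPM. All of these were higher with ATF4, miR-351 by the smallest factor. miR-542-3p was at 33.4 and 81.4 RPM, and miR-542-5p at 1.04 and 1.64 RPM. miR-450a-5p was at 238 and 439 RPM and miR-450b-5p at 46.9 and 101 RPM. All 10 members were thus listed higher with ATF4.

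After scaling, 2 of the 10 were called higher with ATF4 and 0 lower, where 14.5% of 605 miRNAs were called higher. The median of the members was 0.76, against -0.00 for all miRNAs. All 10 members had values above 0, where 298 of the 605 miRNAs did. The called members were miR-542-3p, with a log2 fold change of 1.35, and miR-450b-5p, with 1.17. miR-450a-5p was at 0.95, miR-322-5p at 0.83 and miR-322-3p at 0.79. miR-351-5p was at 0.26 and miR-351-3p at 0.27, the lowest of the members. With upper-quartile factors 0 members were called, the median of the members was 0.38 where that of all miRNAs was -0.38, miR-351-5p was at -0.12 and miR-351-3p at -0.10. The split of the whole table was 53 higher and 124 lower with those factors and 88 and 54 with TMM factors. miR-450b-5p was therefore higher with ATF4 and lower in differentiation of shNC cells, where its value was -0.61. The sum of the markers of other cell types was 165 RPM with the vector and 264 RPM with ATF4. Of the 4 listed, miR-9-5p was higher with ATF4, at 76.0 and 236 RPM, while miR-122-5p, at 79.7 and 26.1 RPM, miR-142a-3p, at 7.66 and 2.14 RPM, and miR-223-3p, at 1.42 RPM and listed at 0, were lower. Their part in these values was not tested.

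In P19 cells, the same knockdown was compared in a line with low levels of the muscle miRNAs. miR-450a-5p was at 1318 RPM in shNC and 609 RPM in shPerk cells, miR-542-3p at 356 and 106 RPM, and miR-450b-5p at 308 and 140 RPM. miR-351-5p was at 223 and 87.1 RPM, miR-503-5p at 214 and 88.2 RPM and miR-322-3p at 192 and 68.7 RPM. miR-322-5p was at 71.9 and 45.5 RPM and miR-503-3p at 50.3 and 28.9 RPM. All of these had lower RPM values in shPerk cells, as did miR-542-5p at 6.70 and 4.94 RPM and miR-351-3p at 6.44 and 1.12 RPM.

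Scaled to the typical miRNA, 2 of the 10 members were called lower in shPerk P19 cells and 0 higher, where 17.7% of 696 miRNAs were called lower. The median of the members was -0.60, against -0.04 for all miRNAs. On this scale 9 of the 10 members had values below 0, where 360 of the 696 miRNAs did. The called members were miR-542-3p, at -1.15, and miR-351-3p, at -1.92, for which the 1.12 RPM in shPerk cells stand for about 5 reads. miR-322-3p was at -0.88, miR-351-5p at -0.75 and miR-503-5p at -0.68, while miR-322-5p was at -0.05. miR-542-5p, which had fewer RPM in shPerk cells, was above the typical miRNA at 0.17 on this scale and at -0.44 with total RPM. The scaling decides how many members pass the limit. With total RPM, 7 members were lower, with a median of -1.21 where that of all miRNAs was -0.65, and the table held 46 miRNAs higher and 247 lower, against 123 and 123 with TMM factors. The sum of the other cell type markers was 3561 RPM in shNC and 1469 RPM in shPerk cells, and that of the muscle miRNAs was 34.5 and 96.9 RPM. Most of the former was miR-9-5p, at 3359 and 1429 RPM. miR-124-3p was also lower, at 198 and 29.6 RPM, and miR-122-5p was higher, at 4.67 and 10.55 RPM. miR-142a-3p and miR-223-3p are not listed for P19 cells.

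The ratio of the 5p to the 3p arm was computed for each hairpin, because both arms lie in the same library and the ratio does not depend on scaling. For Mir322 the log2 ratio was -1.01 (-1.06 to -0.95) in shNC cells and -1.41 (-1.49 to -1.34) in shPerk cells at day 0. At day 3 it was -0.98 (-1.02 to -0.95) in shNC and -2.0 (-2.08 to -1.93) in shPerk cells. The 5p arm thus made up 33.2% and 33.6% of the hairpin's reads in the shNC libraries and 27.3% and 20% in the shPerk libraries. For Mir503 the log2 ratio was 0.75 and 0.54 at day 0 and 1.13 and -0.53 at day 3, in shNC and shPerk cells. The 5p arm was the more abundant of the 2 in 3 of these libraries and the less abundant in shPerk cells at day 3, where it made up 41.0% (939 reads against 1352).

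In the knockdown at day 3, the 5p over 3p ratio was lower by 1.02 (0.94 to 1.10) on the log2 scale for Mir322 and by 1.65 (1.52 to 1.78) for Mir503. Across the table, 20.5% of the 132 hairpins with both arms measured had a ratio lower by more than 1 in this comparison, and by the size of the difference Mir503 ranked 10 and Mir322 ranked 44 among them. Mir351 differed by -0.89 (-1.16 to -0.62) and kept between 97.1% and 98.4% of its reads in the 5p arm. Mir450b, whose 3p arm is no member, had log2 ratios of 1.64 and 0.67 at day 0 and -0.04 and 0.35 at day 3, in shNC and shPerk cells. In differentiation of shNC cells its ratio changed by -1.68 (-1.82 to -1.53), which ranked 4 of 145 hairpins by size. Mir542 was almost wholly 3p, with 5p shares between 0.353% and 0.725%, and its differences rest on 10 to 28 reads of the 5p arm.

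In the other experiments the ratios were as follows. With the vector and with ATF4, the log2 ratio of Mir322 was -1.93 and -1.90 and that of Mir503 -0.44 and -0.55, so they differed by 0.04 and -0.11 between the ATF4 and the vector library. In P19 cells, the ratio of Mir322 was -1.42 in shNC and -0.59 in shPerk cells, a difference of 0.83 in the direction opposite to that in C2C12 cells at day 3. That of Mir503 was 2.09 and 1.61, a difference of -0.48 in the same direction as in C2C12 cells at day 0 and day 3, and the 5p arm made up 81.0% and 75.3% of its RPM. Over 201 hairpins in P19 cells the median size of such differences was 0.61, and by size Mir322 ranked 75 and Mir503 ranked 125. In the knockdown of C2C12 cells at day 0, Mir503 at -0.21 ranked 102 of 144 hairpins, whose median size was 0.40. Differences in the handling or counting of the 2 arms between libraries were not tested.

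**Figure D5:**
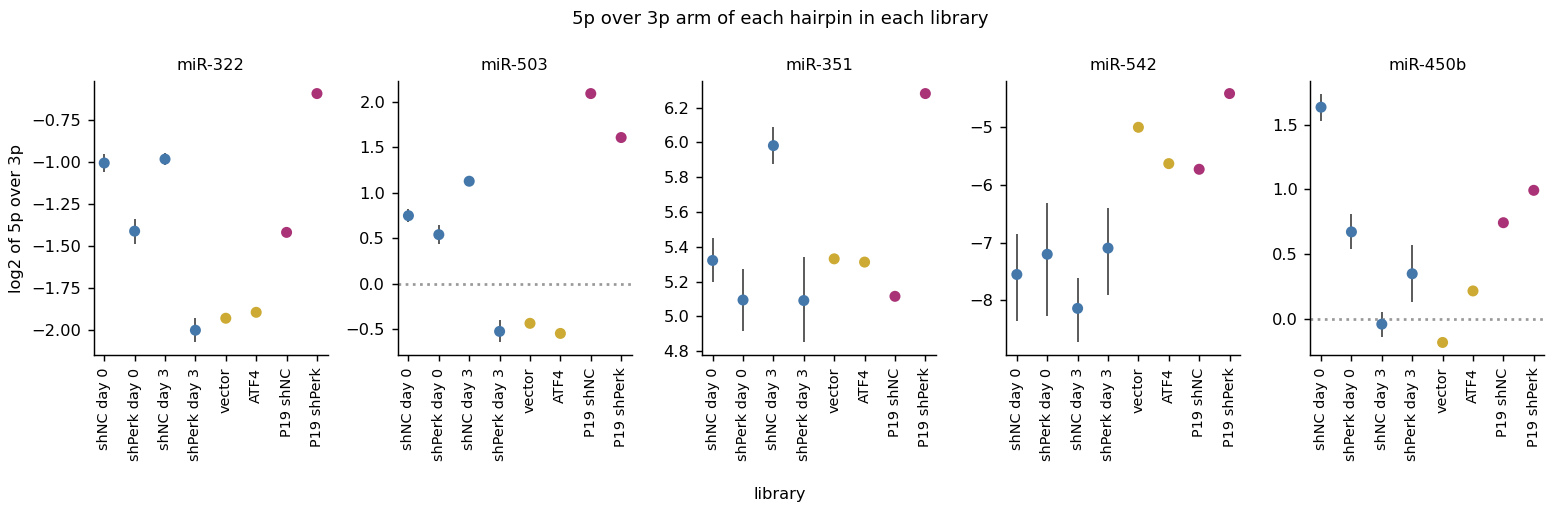
Log2 ratio of the 5p to the 3p arm of 5 hairpins in each library, with 95% counting intervals for the 4 count libraries (blue) and none for the ATF4 (yellow) and P19 (purple) libraries; each panel has its own vertical scale. Mir503 goes from 1.13 in shNC to -0.53 in shPerk cells at day 3.

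miRNAs outside the cluster that carry the seed of a member were examined next, since they can bind the same sites. Among miRNAs with 10 CPM or more on average in the hairpin libraries, the seed of miR-322-5p is shared by miR-15a-5p, miR-15b-5p, miR-16-5p, miR-195a-5p and miR-497a-5p, and that of miR-351-5p by miR-125a-5p and miR-125b-5p. Their sequences, with the same bases in capitals, show that the likeness ends soon after the seed.
mmu-miR-16-5p: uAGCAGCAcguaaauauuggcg
mmu-miR-195a-5p: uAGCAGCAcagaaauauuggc
mmu-miR-125b-5p: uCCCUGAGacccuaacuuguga
mmu-miR-125a-5p: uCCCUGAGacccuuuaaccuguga
miR-322-5p held 13.2% of the reads with its seed in shNC cells and 10.3% in shPerk cells at day 0. At day 3 it held 28.8% (28.3 to 29.3) in shNC and 11.2% (10.8 to 11.7) in shPerk cells. miR-351-5p held 7.56% and 3.00% of the reads with its seed at day 0 and 13.5% and 2.19% at day 3, in shNC and shPerk cells. Both members thus made up a larger part of their seed family in differentiated control cells than in any other hairpin library.

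The partners did not move as one group. In the knockdown at day 3, miR-16-5p, the most abundant of its family with 21403 and 11988 reads, had a log2 fold change of -0.16 (-0.19 to -0.12). miR-15b-5p was at -0.58 and miR-15a-5p was called lower at -1.68 (-2.06 to -1.31), with 379 and 74 reads. miR-195a-5p was called higher at 2.63 (2.47 to 2.78), with 439 and 1692 reads, and miR-497a-5p higher at 1.31, with 344 and 532 reads. The miR-125 partners of miR-351-5p, which outnumber it, were at 0.21 for miR-125b-5p and 0.35 for miR-125a-5p. With ATF4, the part of miR-322-5p in its seed family went from 4.57% to 6.52% and that of miR-351-5p from 1.52% to 2.45%. In P19 cells miR-322-5p held 1.96% and 1.68%, and miR-351-5p 4.86% and 4.61%.

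Other lists gave the setting of these values. The 4 muscle miRNAs were called lower in 4 of 4 cases in the knockdown at day 3, with a median of -2.88, and in 3 of 4 at day 0, with a median of -2.62, where 23% and 20.3% of all miRNAs tested were called lower. With ATF4, 2 of them were called higher, where 14.5% of all were. In P19 cells 3 of the 3 listed were called higher in shPerk cells, where 17.7% of all miRNAs and 0 of the cluster members were. Of these, miR-133b-3p was near the floor, at 1.14 RPM in shNC and 1.79 RPM in shPerk cells. There 1 RPM stands for about 7.92 and 4.46 reads, so its call rests on few reads. The neighbouring miR-106a to miR-363 cluster, 305429 bp away on the X chromosome, had 3 of its 10 mature miRNAs tested in differentiation of shNC cells, with 2 calls lower and a median of -1.32, where 16.5% of all miRNAs were called lower. In the knockdown at day 3 it had 2 miRNAs tested, at -2.25 and -0.53. The 136 other X-linked miRNAs of the annotation include miRNAs of the miR-106a to miR-363 cluster, so these lists overlap. Of the 136, 57 were tested in differentiation, with 3 calls higher and 4 lower and a median of -0.15, where 12.5% of all were called higher and 16.5% lower. In the knockdown at day 3, 64 of them were tested, with 29 calls higher and 19 lower and a median of 0.78, where 21.9% of all were called higher and 23% lower. The median of the members was thus above those of both lists in differentiation, and in the knockdown it lay below that of the other X-linked miRNAs. These differences were not tested.

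The miRNAs nearest to the summed members over all 8 libraries were looked for among 257 non-members with at least 10 CPM or RPM on average in each of the 3 experiments, by the root mean square difference of log2 levels after centring each experiment. The nearest were miR-3068-3p at 0.26, miR-103-3p at 0.26, miR-30b-5p at 0.30, miR-450b-3p at 0.30 and miR-339-5p at 0.32, where the median over non-members was 0.68. Of these, miR-450b-3p is an arm of the cluster. The 8 members abundant enough to compare ranged from 0.14 for miR-503-3p to 0.62 for miR-450b-5p. Each member forms part of the sum and the non-members do not, so these distances are not on equal terms. miR-450b-5p, miR-503-5p at 0.39 and miR-351-5p at 0.35 were farther from the sum than the 5 named miRNAs.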

How the data were processed

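Small RNA from 8 samples, 1 library each, was sequenced. The authors ligated linkers, reverse-transcribed, amplified and gel-selected the RNA and used bowtie for annotation. Raw read counts per mature miRNA were deposited for the 4 C2C12 hairpin libraries. RPM values, which are reads per 1000000 miRNA reads, were deposited for the ATF4 and P19 pairs. The submitters' processing notes name mm10 and GRCm38. The bowtie version, the miRNA release and the handling of reads with more than 1 match are not given in the sources used here. The tables also hold fold changes, p-values and q-values of the authors' own comparisons, which were not used. Depth was 8800977 to 11993448 reads in the count libraries. In the RPM tables, 94.8% to 97.9% of values under 20 RPM were whole multiples of 1 step within 0.006 RPM, from which approximate reads were taken and no count model was run.

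miRNAs with at least 1 CPM or RPM in at least 1 library of a pair were kept, library sizes were scaled with TMM factors from these miRNAs (edgeR 4.0.16, R 4.3.3), and log2 fold changes were computed with a prior count of 0.125 (counts) or with values at 0 set to 1 RPM. A call needed a log2 fold change beyond 1. Each of the 6 comparisons has 1 library a side, so no test was run. Intervals of reads and shares are 95% Clopper-Pearson intervals and those of arm ratio differences are exact conditional intervals of the odds ratio, all for counting error only. Tables and plots were made in Python 3.11.15 (pandas 2.3.3, matplotlib 3.10.9, numpy 2.4.6 and scipy 1.17.1). The computation of fold changes and intervals was first run on simulated counts with counting error alone, and on RPM values scaled by a constant. That run holds no spread between replicates, so it cannot show how well the intervals hold for these data. Alternatives were total, median-of-ratios (DESeq2 1.42.0) and upper-quartile scaling, TMM factors over 4 libraries, no filter, a filter at a mean of 10, a prior count of 2 or 0.5 RPM, calls on the whole interval, and 0.5 reads added to each arm. Without a filter, or with the stricter one, the TMM factors came from the miRNAs that then remained.

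The named miRNAs were all members, the other arms of their hairpins, miRNAs outside the cluster that share a seed with a member and have a mean of at least 10 CPM, the 5 non-members with the nearest profile, and the muscle, embryonal carcinoma, other cell type, miR-106a to miR-363 and other X-linked lists. The members and lists were chosen with earlier results of these data known. Positions are from GENCODE (GRCm38) and sequences from RefSeq (GRCm38.p6).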

Additional observations from a re-analysis of the deposited data

Results flagged for a closer look

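For 3 of the 10 members, day 3 against day 0 went in opposite directions in the control and the knockdown line, with the counting interval of each value excluding 0. The log2 fold change of miR-503-5p was 1.33 in shNC and -0.81 in shPerk cells, a difference of -2.14 (shPerk minus shNC). That of miR-351-5p was 1.33 and -0.66, a difference of -1.99. That of miR-351-3p was 0.67 and -0.66, a difference of -1.32. These values are with TMM factors. With scaling to total reads, miR-322-5p and miR-503-3p also went below 0 in shPerk cells, at -0.18 and -0.10. Their values in shNC cells were then 1.29 and 0.68. With 1 library per condition none of these differences was tested. The shPerk libraries also held more reads of miR-9-5p and miR-142a-3p from the list of markers of other cell types. Of the other markers on that list, miR-122-5p was lower, miR-124-3p had 0 reads, and miR-223-3p had 0.106 CPM at most. The part of these markers in the values above was not tested.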

How the results depend on the processing

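Each condition has 1 library, so no library could be left out, and no paired analysis was possible because the samples carry no replicate numbers and the values come from no test. Prior counts and calls on the whole interval changed no count of members called, and in the count libraries 0.5 reads added to each arm moved no arm difference out of its interval. Over 393 values of single members under the alternatives, 21 crossed the limit of a call and 9 changed sign, and none of the values that crossed the limit changed sign. The 393 include values that could not move. In the ATF4 and P19 experiments all listed miRNAs passed the filter and no member was at 0. The settings without a filter and with 0.5 RPM therefore repeated the main values there. For the knockdown at day 0, total reads and the mean of at least 10 CPM each gave 1 member lower in place of 0, the latter with a median of -0.76. For the knockdown at day 3, the median was -1.67 with total reads and -1.60 with that filter. In differentiation of shNC cells the median was 0.89 with total reads and 1.04 with upper-quartile factors, and 8 members were higher without a filter and 7 with median-of-ratios factors. In differentiation of shPerk cells, total reads gave 4 members lower and a median of -0.14, and no filter and TMM factors of 4 libraries each gave 1 member higher. With ATF4 the median was 0.69 with total RPM, 0.75 with median-of-ratios factors, 0.38 with upper-quartile factors (0 members called) and 0.69 with the mean of at least 10 RPM. In P19 cells it was -1.21 with total RPM (7 members lower), -0.56 with median-of-ratios factors, -0.74 with upper-quartile factors and -0.55 with the mean of at least 10 RPM, where 1 member was lower among the 8 left. Without a filter, 1053 to 1174 miRNAs entered the comparisons of the count libraries. The causes of these shifts were not tested. Depth limits miR-542-5p, with 10 to 28 reads, and miR-351-3p in P19 cells, with about 5 and 51 reads.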
